A study of Gallus gallus with 77 samples.

Results

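Basic helix-loop-helix (bHLH) factors are transcription factors that bind DNA as dimers through a basic region and pair through a helix-loop-helix domain. In the inner ear, proneural members of the family start the programs of sensory neurons and of hair cells, members of the HES and HEY families carry the repressive output of Notch signaling, and the ID proteins, which lack the basic region, hold E proteins away from DNA. Further branches of the family are the MYC and MAX network of growth control, the leucine zipper members that govern lysosomal and lipid genes, and the PAS members that sense oxygen, xenobiotics and the time of day. The members were taken by name from the gene names on a human transcription factor array, with a pattern of bHLH gene symbols. No measured value entered the pattern, though earlier results of these data were known when it was chosen. The pattern took 54 of 1507 gene names. They were 7 neural factors, 5 HES/HEY factors, 4 ID proteins, 3 E proteins, 9 mesodermal and haematopoietic factors, 7 members of the MYC network, 8 leucine zipper members, 10 PAS members, and *MYCBP*, which the pattern takes but which encodes a MYC-binding protein and no bHLH factor. Of the 54 names, 46 were found as a symbol and *AHR* as a synonym among the genes of the chicken RefSeq annotation, while *HES2*, *HES7*, *MYCL1*, *MYCL2*, *NPAS1*, *TFE3* and *USF2* had no match under those names. *HES1* stands on the array under its older name *HRY*, which the pattern does not take.

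The samples were sensory epithelia (SE) of the cochlea of White Leghorn chicks, taken within the first weeks after hatching, freed from other tissue with thermolysin and cultured on fibronectin. One set of cultures was wounded along lines by laser pulses and left to recover for 30 min or for 1, 2 or 3 hrs, and the controls were unlesioned cultures of the same time, kept out of the incubator for as long as the lesioning took. Each time point had 2 biological replicates, each a pool of several specimens whose RNA was amplified, and several arrays compared the same laser and control RNA, some with the dyes switched. There were 77 arrays, 25 of the 30 min cultures, 17 of the 1 hr, 15 of the 2 hr and 20 of the 3 hr cultures. The chick cultures carried no genetic change, and the laser wound covered only part of each culture, so that the RNA came from wounded and unwounded cells together. In such bulk samples, fewer cells that express a gene and less RNA per cell cannot be told apart.

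On each array, the laser RNA was labelled with 1 dye and the control RNA with the other, and both bound to the same 50 mer probes, each spotted in duplicate. A ratio is given as the log2 of laser over control after background correction and loess normalization, so that 0 is no difference and 0.263 is a 1.2-fold difference. It was averaged over the arrays of each dye orientation and then over both orientations to 1 value for each biological replicate. With 2 replicates at each time point, a p-value from limma rests on the spread between these replicates, pooled over the 4 time points. The spread of each gene is drawn toward that of all genes (prior degrees of freedom 9.3), so standard errors and p-values are not from its own replicates alone. Titles and image names gave the same dye for the laser RNA on 77 of 77 arrays, and the ratios are printed in that direction. The dye orientations did not run the same way across genes, however, and why was not tested. After turning to laser over control, arrays that carried laser RNA in Cy3 and arrays that carried it in Cy5 correlated between −0.64 and −0.24 in the 8 replicates (Pearson's r across 1504 genes, which are not independent), and across the 54 members between −0.60 and −0.27. The called ratios are therefore also given by orientation and without turning any array, as Cy5 over Cy3, and shares of members above 0 with their unturned value. Detection of marker genes did not tell the labelled tissue from other cells. Of the hair cell genes *POU4F3*, *GFI1* and *BARHL1*, 3 of 3 reached a spot signal of 1000 in at least 80% of arrays at 1 time point or more, as did 6 of 6 sensory epithelium genes, 2 of 2 mesenchymal genes, 3 of 3 neuronal genes and 4 of 4 skeletal muscle genes. Of all genes 92.2% did so at 1 hr alone, so these counts cannot tell the tissues apart. Only *POU4F1*, on the neuronal list, was above the 95th percentile of the control spots on 80% or more of a time point's arrays. Among the marker genes, *BARHL1* (ratio −0.35, adjusted p = 0.209 in limma) and the sensory epithelium gene *PAX2* (−0.31, adjusted p = 0.216) passed the unadjusted threshold at 2 hrs. Of all genes 4.19% did so there. By orientation *BARHL1* was at −0.37 and −0.32 and *PAX2* at −0.59 and −0.03. With no array turned *BARHL1* was at 0.02 and *PAX2* at 0.28. No other marker was called at any time point, and the part of other cell types in the results was not tested.

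Most bHLH probes gave a signal above the detection level at 1 hr and 2 hrs, and fewer did at 30 min. A member was taken as detectable where its mean spot signal over both channels reached 1000 on 80% or more of a time point's arrays, a description with no test. By this measure 16 of 54 members (29.6%) were detectable at 30 min. At 1 hr they were 52 (96.3%), at 2 hrs 48 (88.9%) and at 3 hrs 35 (64.8%). Over all 1507 genes the shares were 32.1%, 92.2%, 85.5% and 57.3%, close to those of the members. The arrays' own median spot signal was lower at 30 min (1236) and 3 hrs (1386) than at 1 hr (2890) and 2 hrs (1960). With every array scaled to the same median signal, 43 members were detectable at 30 min, and 45, 45 and 49 at the later time points. The shares of all genes were then 72.6%, 79.2%, 82.9% and 86.9%.

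**Figure D1:**
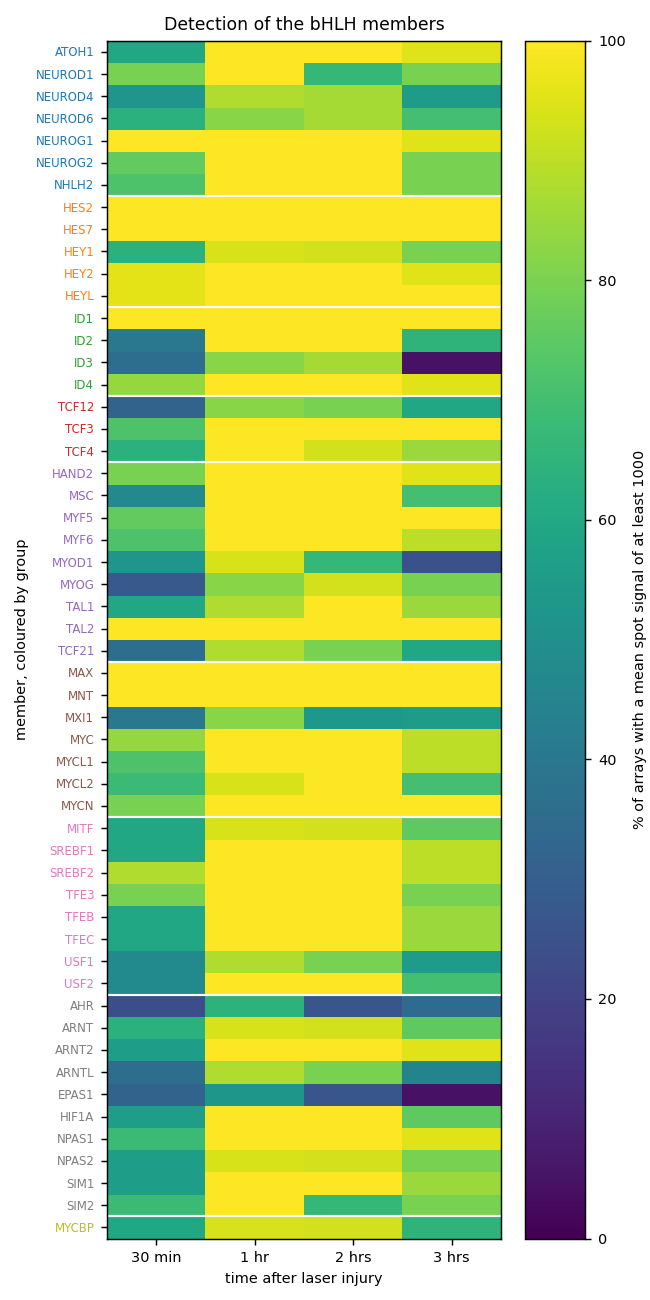
Share of the arrays of a time point (in %, colour) on which the mean spot signal of each of the 54 members (rows, grouped by family branch) was at least 1000, at the 4 recovery times (columns). The column for 1 hr is bright for all but *AHR* and *EPAS1*, and at 30 min 16 members reach 80%.

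At every time point 15 members (27.8%) were detectable, against 29.8% of all genes. The counts by branch are given as a description with no test. Among the HES/HEY factors, *HES2*, *HES7*, *HEY2* and *HEYL* (4 of 5) were detectable at every time point, as were *MAX*, *MNT*, *MYC* and *MYCN* (4 of 7) of the MYC network and *ID1* and *ID4* of the ID proteins. Of the 10 PAS members none was detectable at every time point, and *AHR*, the receptor for dioxin-like compounds, and *EPAS1*, which encodes the oxygen-regulated subunit HIF-2α, were detectable at none. Of the neural factors only *NEUROG1* was detectable at all 4 time points. *ATOH1*, the factor that hair cells need to form, was detectable at 1 hr, 2 hrs and 3 hrs. Its mean raw signal was 3397 at 1 hr and 1990 at 3 hrs. As log2 signal minus the array's median it was at 0.28, 0.56, 0.46 and 0.76 in order of recovery time. Levels of different probes are not compared, since a human probe binds each chicken transcript with its own strength. The muscle genes *MYF5*, *MYF6* and *MYOG*, which specify skeletal muscle, were detectable at 1 hr, 2 hrs and 3 hrs as well. The level of 1000 lies below many control spots, however. Control spots without a known homolog had a median signal of 875.8 at 30 min, and of 2007, 1770 and 1186 at 1, 2 and 3 hrs. At the later time points a typical control spot was thus above the level, and being detectable there does not show expression. A higher level was the 95th percentile of all control spots of the same array. These spots stand for 27 control names, not only for those without a known homolog. Above it, in at least 80% of arrays, were 6 members at 30 min and 7 at each later time point. The shares of all genes were 5.91%, 11.3%, 6.37% and 8.63% in order of recovery time. *HES7*, *ID1* and *TAL2* were above that percentile on 77 of 77 arrays, *HES2* on 74, *MNT* on 70, *MAX* on 67 and *HEY2* on 65. *NEUROG1* was above it on 76% of the 30 min arrays and on 17.6%, 13.3% and 30% of the later ones, short of 80% at each time point. *ATOH1*, *NEUROD1* and the E proteins were not in this group either.

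Across the 4 time points, no member passed an adjusted p of 0.05 at over 1.2-fold in limma (0 of 54), nor did any of the 1504 genes tested (0%). All 54 members entered the test, since the mean signal of each reached 1000 at some time point. At over 1.2-fold with an unadjusted p below 0.05 in limma, 3 members were called at 30 min (5.56%, against 3.46% of all genes), 0 at 1 hr (against 0.332%), 3 at 2 hrs (5.56%, against 4.19%) and 2 at 3 hrs (3.70%, against 1.53%). They were *NEUROG1*, *HES7* and *MAX* at 30 min, *NHLH2*, *ARNT* and *HAND2* at 2 hrs, and *HES2* and *HES7* at 3 hrs. The study's methods instead tested each gene over its arrays and asked for the same direction on 80% of them. The methods' test over arrays, at the same fold, called 1, 0, 2 and 1 members, against 2.53%, 0.199%, 2.33% and 0.798% of all genes. Of the 8 ratios called here only *NEUROG1* (22 of 25 arrays) ran one way on 80% of its arrays. The limma shares, each of 3 members or fewer, lay near those of all genes. Of the 216 ratios of a member at a time point, 208 (96.3%) were within 1.2-fold. The median ratio of the members was −0.01, 0.02, −0.08 and −0.01 in order of recovery time, against −0.00, −0.01, −0.01 and −0.00 over all genes. At 2 hrs 10 of 54 members were above 0 (18.5%, against 45.1% of all genes), and at the other time points 24, 31 and 25. Without turning, 29 of 54 were above 0 at 2 hrs (53.7%, against 54.7%), and 27, 27 and 20 at the other time points. Both replicates had the same sign for 27, 31, 32 and 28 of the 54 members (50%, 57.4%, 59.3% and 51.9%), where all genes gave 56.4%, 51.7%, 52.3% and 50.4%.

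**Figure D2:**
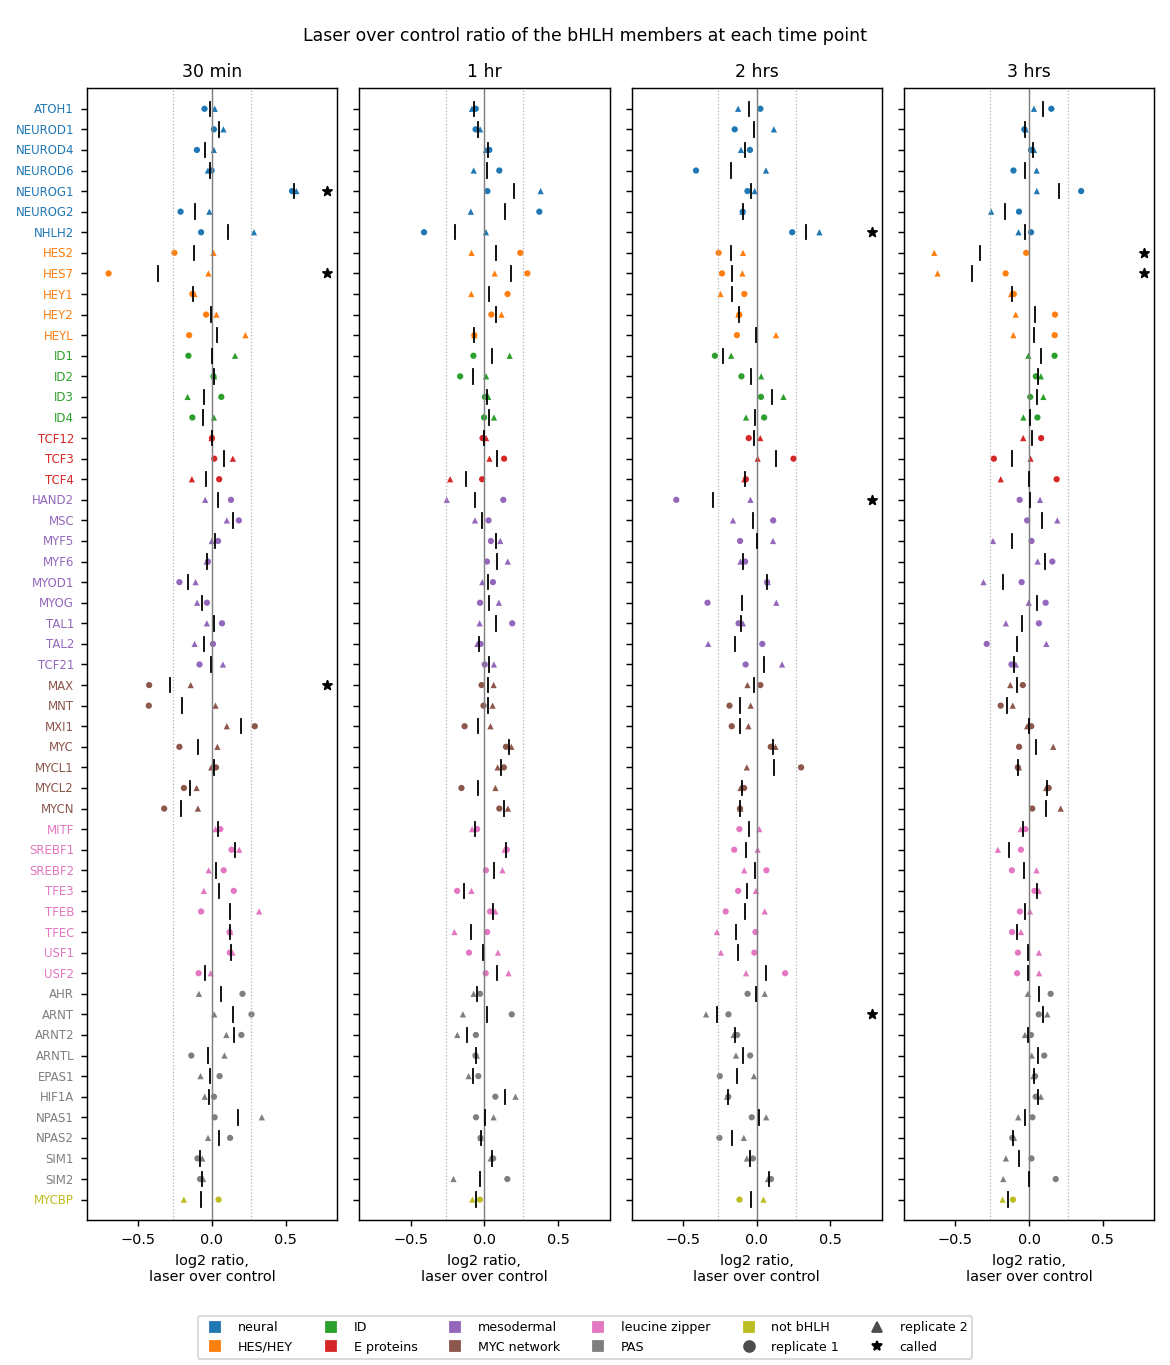
Log2 ratio, laser over control, of each of the 54 members (rows) at each time point (panels), with a circle for replicate 1, a triangle for replicate 2 and a bar for their mean. Dotted lines mark 1.2-fold and stars the 8 ratios past the unadjusted threshold, of which only *NEUROG1* at 30 min has both replicates above 0.5.

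Among the neural factors, *NEUROG1* gave the largest ratio of any member at any time point, at 30 min. *NEUROG1* is a proneural gene that in the mouse inner ear is required for the sensory neurons. Its replicates were at 0.54 and 0.57 at 30 min, 0.02 and 0.38 after 1 hr, −0.06 and −0.01 after 2 hrs and 0.35 and 0.05 after 3 hrs. Both 30 min values lay above each of the 6 later ones, and the later replicates lay close to 0 or far apart. The mean at 30 min was 0.56 (1.47-fold, standard error 0.0976, n = 2), with an adjusted p of 0.0685 in limma. That was the smallest adjusted p at 30 min, shared with 1 other gene. By orientation the replicates were at 0.46 and 0.50 with the laser RNA in Cy3 and at 0.63 and 0.64 with it in Cy5, and both orientations had the same sign. On single arrays of 30 min the ratio ran from −0.35 to 1.62 (median 0.41) and was above 0 on 22 of 25, namely 10 of 12 with the laser RNA in Cy3 and 12 of 13 with it in Cy5. The means of the 4 days on which the 30 min images were measured, with both orientations weighted equally, ran from 0.44 to 0.70. Within a day the orientations were far apart, at −0.04 for laser RNA in Cy3 and 1.38 for Cy5 on the day with the widest gap. With no array turned the value was 0.08. The adjusted p in limma depended on the processing, at 0.0255 without background correction, 0.114 with median centring and 0.722 with plain background subtraction. Over all alternatives it ran from 3.76e-10 to 0.722. The smallest came from a fit that takes each array as a sample, with the day of image analysis as a term and the replicate as a random block.

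**Figure D3:**
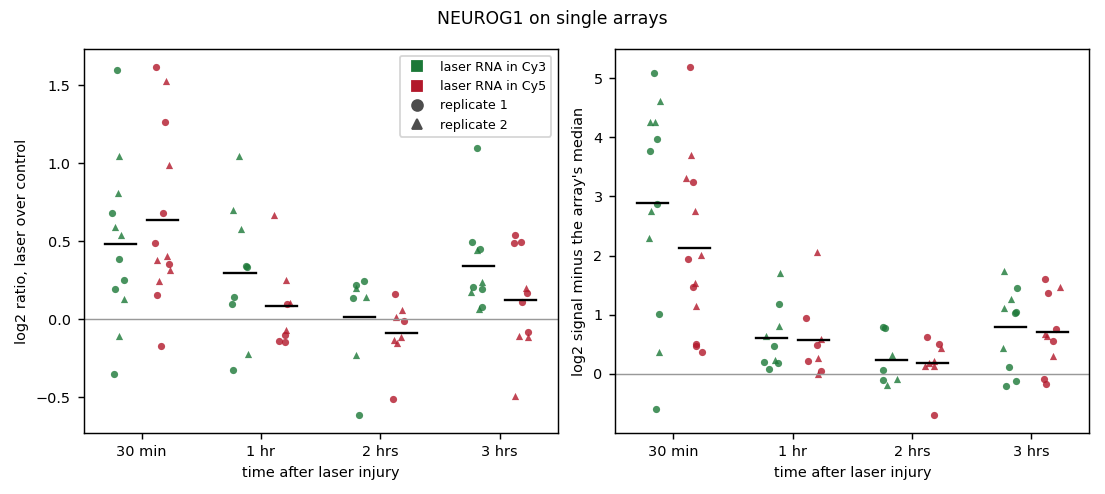
*NEUROG1* on each of the 77 arrays, as log2 ratio of laser over control (left) and as log2 signal over both channels minus the array's median (right), by time point and by the dye of the laser RNA (green Cy3, red Cy5), with circles for replicate 1, triangles for replicate 2 and bars for the mean of an orientation. At 30 min 22 of 25 ratios are above 0, and the signal spreads from −0.59 to 5.19.

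The remaining neural factors gave smaller values. *NHLH2*, a factor of developing neurons, was called at 2 hrs, where its replicates were at 0.24 and 0.43 (mean 0.33, 1.26-fold, standard error 0.109, adjusted p = 0.257 in limma). At 30 min they were at −0.07 and 0.28, at 1 hr at −0.41 and 0.01, and at 3 hrs at 0.01 and −0.07. Its 2 hr ratio was above 0 in both orientations (0.44 for laser RNA in Cy3, 0.22 for Cy5) and on 10 of 15 arrays, and it was −0.11 with no array turned and 0.09 in the authors' own ratios. Without 2 hr replicate 2 it was 0.24 and no longer past the threshold. *ATOH1* was called at no time point. Its replicates were at −0.05 and 0.02 at 30 min, −0.06 and −0.08 after 1 hr, 0.02 and −0.13 after 2 hrs and 0.15 and 0.03 after 3 hrs, with a standard error of 0.0780 for each mean. *NEUROD1*, which acts downstream of *NEUROG1* in neurons of the mouse ear, was at 0.01 and 0.08, −0.06 and −0.03, −0.15 and 0.12, and −0.03 and −0.02 at the same times. By orientation *ATOH1* was at −0.37 and 0.27 at 2 hrs, and its other orientation means lay between −0.16 and 0.13. As Cy5 over Cy3 it was at 0.32 at 2 hrs (adjusted p = 0.0358 in limma). Those of *NEUROD1* lay between −0.22 and 0.28. The laser difference of either gene from 0 was smaller than 1.2-fold at each time point and did not pass the test. *NEUROD4*, *NEUROD6* and *NEUROG2* had means between −0.17 and 0.14.

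The HES and HEY families include repressors through which Notch signaling acts in supporting cells. Of the 8 ratios past the unadjusted threshold, 3 belonged to *HES7* and *HES2*, names without a match in the chicken annotation. What these human probes bind in chicken RNA was not tested, so their ratios are not read as Notch output. *HES7*, known as a clock gene of somite formation in the mouse, was at −0.70 and −0.02 at 30 min (mean −0.36, standard error 0.139, adjusted p = 0.450 in limma) and at −0.16 and −0.62 at 3 hrs (mean −0.39, adjusted p = 0.988). At 1 hr it was at 0.29 and 0.07 and at 2 hrs at −0.24 and −0.10. In each called case 1 replicate carried most of the mean and the other was closer to 0. *HES2* was at −0.02 and −0.64 at 3 hrs (mean −0.33, standard error 0.129, adjusted p = 0.988), and at −0.26 and 0.01, 0.24 and −0.09, and −0.26 and −0.09 at the earlier time points in order. The dye orientations of these probes disagreed. At 30 min *HES7* was at 0.44 where Cy3 held the laser RNA and at −1.17 where Cy5 did, and at 3 hrs at 0.01 and −0.79. *HES2* at 3 hrs was at 0.09 and −0.75. As Cy5 over Cy3, *HES7* was at −0.80 at 30 min (adjusted p = 0.000961) and at −0.40 at 3 hrs (adjusted p = 0.0343), and *HES2* at −0.42 at 3 hrs (adjusted p = 0.0435), so that in each called case the dye difference was the larger of both. On 1 of the 4 days on which the 30 min images were measured, with 6 arrays that all belong to replicate 1, *HES7* averaged 0.69 on the 2 arrays with laser RNA in Cy3 and −2.69 on the 4 with it in Cy5, or −1 with both orientations weighted equally. On the other days that mean lay between −0.07 and −0.03. These probes also gave some of the brightest spots of the set, with 13 of 308 spot values of *HES7* and 6 of 308 of *HES2* at the limit of the scanner, as were 22 of 308 of *ID1*.

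**Figure D4:**
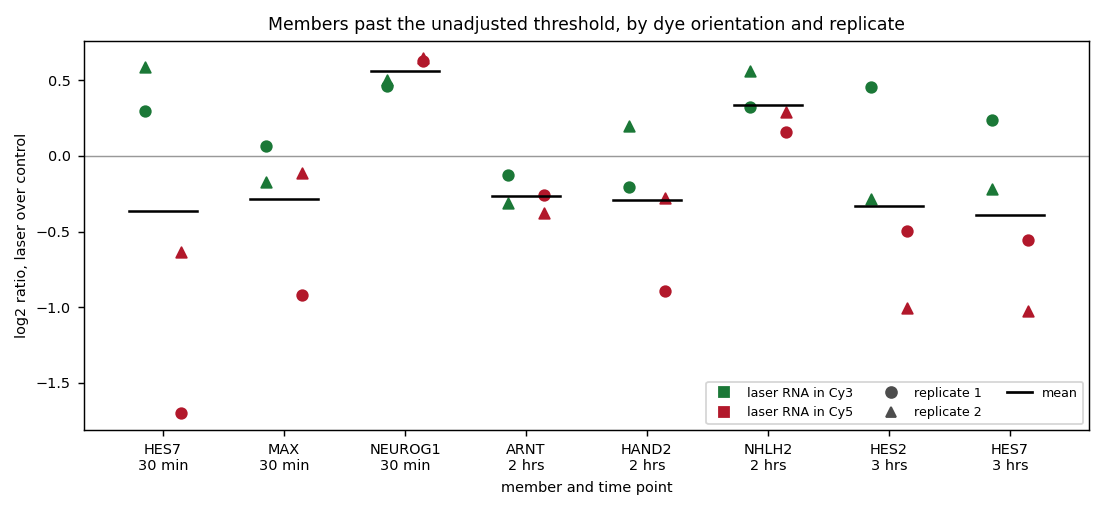
Log2 ratio, laser over control, of the 8 member and time point pairs past the unadjusted threshold, by dye orientation (green for the laser RNA in Cy3, red for Cy5) and by replicate (circle and triangle), with a bar for the mean. All 4 points lie on 1 side of 0 for *NEUROG1*, *ARNT* and *NHLH2*, and on both sides for *HES7*, *HES2*, *MAX* and *HAND2*.

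Of the 8 called ratios, *NEUROG1* alone stayed past the unadjusted threshold whichever replicate was left out. The others fell below it without 1 replicate, namely *HES7* and *MAX* without 30 min replicate 1, *HAND2* without 2 hr replicate 1, *ARNT* and *NHLH2* without 2 hr replicate 2, and *HES7* and *HES2* without 3 hr replicate 2. The remaining replicate was then assumed to vary like the other groups.

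The HEY genes, which respond to Notch in many tissues, did not pass the test at any time point. *HEY1* was at −0.13 and −0.12 at 30 min, 0.16 and −0.09 after 1 hr, −0.08 and −0.25 after 2 hrs and −0.10 and −0.12 after 3 hrs. Its 3 means below 0 (−0.13, −0.17 and −0.11) were each within 1.2-fold. *HEY2*, which in the mouse cochlea keeps pillar cells from becoming hair cells, was at −0.04 and 0.03, 0.05 and 0.12, −0.12 and −0.13, and 0.18 and −0.09 in the same order. *HEYL* was at −0.15 and 0.23, −0.07 and −0.07, −0.13 and 0.13, and 0.17 and −0.11. At 2 hrs 0 of 5 HES/HEY members were above 0, with a median of −0.17, against −0.01 over all genes, and none of them was called there. With no array turned 1 of 5 was above 0 at 2 hrs, *HEY1* at 0.12, and 0 of 5 at 30 min. The orientation means ran from −0.32 to 0.32 for *HEY1*, from −0.43 to 0.51 for *HEY2* and from −0.26 to 0.26 for *HEYL*. *HRY*, the older name of *HES1*, was at 0.16 and −0.12, −0.13 and −0.01, 0.13 and −0.25, and 0.00 and 0.06 in its replicates and was called at no time point.

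The ID proteins are early targets of BMP and TGF-β signals in many cells and inhibit the E proteins, their dimer partners. *ID1* was at −0.16 and 0.16 at 30 min, −0.07 and 0.17 after 1 hr, −0.28 and −0.17 after 2 hrs and 0.17 and −0.01 after 3 hrs. Its 2 hr mean of −0.23 had an unadjusted p of 0.0321 in limma (adjusted p = 0.400) and was within 1.2-fold. By orientation that mean was −0.74 for laser RNA in Cy3 and 0.28 for Cy5, and as Cy5 over Cy3 it was 0.51 (adjusted p = 0.00948). *ID2* was at 0.01 and 0.01, −0.16 and 0.01, −0.10 and 0.03, and 0.05 and 0.08, *ID3* at 0.06 and −0.17, 0.00 and 0.03, 0.03 and 0.18, and 0.01 and 0.10, and *ID4* at −0.13 and 0.01, −0.00 and 0.07, 0.05 and −0.07, and 0.06 and −0.04. The values of these ID genes scattered around 0 with no call, and their orientation means lay between −0.41 and 0.34. Among their partners, *TCF3* (E2A) was at 0.02 and 0.14, 0.13 and 0.03, 0.25 and 0.01, and −0.24 and 0.01, and *TCF12* (HEB) had each replicate between −0.05 and 0.08. *TCF4* was at 0.05 and −0.14, −0.01 and −0.23, −0.07 and −0.08, and 0.19 and −0.19. That name stands for the E protein E2-2 and was also once used for *TCF7L2*, and the files do not say which the probe reads. No E protein passed the test at any time point, and their orientation means ran from −0.62 to 0.51, both for *TCF3*.

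Of the 9 mesodermal and haematopoietic factors, *HAND2*, which patterns the heart, limb and sympathetic neurons, was called at 2 hrs. Its replicates there were at −0.55 and −0.04 (mean −0.29, standard error 0.117, adjusted p = 0.358 in limma), so that replicate 1 carried the value. At 30 min they were at 0.13 and −0.05, at 1 hr at 0.13 and −0.26, and at 3 hrs at −0.06 and 0.07. With the laser RNA in Cy3 the 2 hr ratio was −0.00 and with it in Cy5 −0.59, and as Cy5 over Cy3 it was −0.29, the same value as for laser over control. The muscle factors *MYF5*, *MYF6*, *MYOD1* and *MYOG* had means between −0.18 and 0.11 over the 4 time points, and the blood factors *TAL1* and *TAL2* between −0.15 and 0.08. None of these was called.

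In the MYC network, MYC drives growth and proliferation as a dimer with MAX, while MNT and MXI1 compete for MAX and repress. *MAX* was called at 30 min, with replicates at −0.43 and −0.14 (mean −0.29, standard error 0.0848, adjusted p = 0.319 in limma), and was at −0.02 and 0.06 after 1 hr, 0.02 and −0.06 after 2 hrs and −0.04 and −0.13 after 3 hrs. Its 30 min ratio was −0.05 where Cy3 held the laser RNA and −0.52 where Cy5 did, and it was below 0 on 16 of 25 arrays. As Cy5 over Cy3 it was −0.23. The same 6 arrays of replicate 1 that stood apart for *HES7* gave *MAX* at 0.23 on the 2 with laser RNA in Cy3 and at −1.59 on the 4 with it in Cy5, or −0.68 with both weighted equally. The other days lay between −0.21 and 0.24. *MYC*, an immediate early gene of many growth responses, was at −0.22 and 0.04 at 30 min, 0.15 and 0.18 after 1 hr, 0.10 and 0.13 after 2 hrs and −0.07 and 0.16 after 3 hrs. Both replicates of *MYC* were above 0 at 1 hr and 2 hrs, and its means of 0.17 and 0.11 did not pass the test. By orientation they were 0.20 and 0.14 at 1 hr, and 0.30 and −0.08 at 2 hrs. At 30 min 2 of 7 network members were above 0 (*MXI1* at 0.20 and *MYCL1* at 0.01), with a median of −0.15. At 1 hr 5 of 7 were above 0 and the median was 0.03. Unturned, 2 of 7 and 4 of 7 were above 0 at these times. No member besides *MAX* was called.

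The leucine zipper members bind E-box motifs and serve lysosomal and pigment (*TFEB*, *TFE3*, *MITF*), lipid (*SREBF1*, *SREBF2*) and general promoters (*USF1*, *USF2*). At 30 min 7 of 8 were above 0, with a median of 0.08 and a largest value of 0.16 for *SREBF1*, and at 3 hrs 1 of 8 was. As Cy5 over Cy3, 4 of 8 were above 0 at 30 min, with *SREBF1* at −0.29, and 2 of 8 at 3 hrs. Each of their 32 means was within 1.2-fold and none was called. Among the PAS members, *ARNT*, the shared dimer partner of HIF and AHR proteins, was called at 2 hrs, with replicates at −0.19 and −0.34 (mean −0.27, standard error 0.0952, adjusted p = 0.281 in limma). It was at 0.27 and 0.02 at 30 min, 0.19 and −0.15 at 1 hr, and 0.07 and 0.12 at 3 hrs. The 2 hr ratio of *ARNT* was below 0 in both replicates of both orientations (−0.22 for laser RNA in Cy3, −0.32 for Cy5) and on 10 of 15 arrays, and with no array turned it was −0.05. *HIF1A*, the oxygen-regulated subunit that pairs with ARNT, had both replicates below 0 at 2 hrs as well (−0.19 and −0.20, mean −0.20, unadjusted p of 0.0215 and adjusted p of 0.350 in limma), within 1.2-fold. By orientation it was at −0.16 and −0.23 there, and as Cy5 over Cy3 at −0.03. At 30 min it was at 0.01 and −0.05, at 1 hr at 0.07 and 0.21, and at 3 hrs at 0.04 and 0.08. *EPAS1* was at 0.05 and −0.08, −0.04 and −0.11, −0.25 and −0.02, and 0.04 and 0.03, and *AHR* at 0.21 and −0.09, −0.03 and −0.07, −0.06 and 0.05, and 0.15 and −0.01, both from signals below the detection level. Orientation means lay between −0.20 and 0.16 for *EPAS1* and between −0.16 and 0.30 for *AHR*. At 2 hrs 8 of 10 PAS members were below 0 (median −0.11), where 44 of all 54 members were. Unturned, 5 of 10 were above 0.

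The F-test for different ratios among the 4 time points gave an unadjusted p under 0.05 for 7 members (13%, against 8.18% of all genes) and an adjusted p under 0.05 for 0. They were *NEUROG1* (unadjusted p of 0.00668 in limma), *NHLH2*, *MYCN*, *ARNT*, *HIF1A*, *HES7* and *SREBF1* (0.0433), and the smallest adjusted p was 0.566. *HIF1A* and *ARNT* were above 0 in the mean at 1 hr, below 0 at 2 hrs and above 0 at 3 hrs. *SREBF1* was above 0 in both replicates at 30 min and 1 hr (0.13 and 0.19, 0.15 and 0.14), and its 2 hr and 3 hr means were −0.07 and −0.13. Its orientations disagreed in sign at each time point. With the laser RNA in Cy3 it was at 0.45, 0.37, 0.01 and 0.22, and with it in Cy5 at −0.14, −0.08, −0.16 and −0.49. *MYCN* had means of −0.21, 0.13, −0.11 and 0.12. The 1 hr and 2 hr arrays share 2 of the 11 days of image analysis. With both orientations weighted equally, *HES7* averaged 0.24 and 0.21 at 1 hr on those days but −0.28 and −0.34 at 2 hrs, and *NHLH2* −0.28 and −0.04 at 1 hr but 0.25 and 0.22 at 2 hrs. *ARNT* averaged 0.05 and −0.08 at 1 hr and 0.07 and −0.44 at 2 hrs, so that it was lower at 2 hrs on 1 of both days. *HIF1A* averaged 0.18 and 0.19 at 1 hr and 0.07 and −0.46 at 2 hrs, *MYCN* 0.15 and 0.21, then 0.08 and −0.35, *SREBF1* 0.11 and 0.23, then 0.04 and −0.29, and *NEUROG1* 0.26 and 0.38, then 0.10 and −0.25. These were lower at 2 hrs on both days. The members shown by day are those that passed the unadjusted F-test, and these days hold part of the same arrays. The values by day are therefore no separate test. The orientation held by the fewest arrays, at 1 hr on 1 of the days, had 1 array.

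The signal of the probes was compared between the time points as well. Signal here is the mean log2 signal of both channels minus the array's median over genes, and it describes laser and control RNA together. In limma, a difference among the 4 time points had an adjusted p under 0.05 for 1 of 54 members (1.85%, against 0.598% of all genes), and that was *NEUROG1*. Its relative signal was 2.28 and 2.75 in the replicates of 30 min, 0.42 and 0.79 after 1 hr, 0.26 and 0.12 after 2 hrs and 0.61 and 0.96 after 3 hrs. Both 30 min replicates were higher than each later one (adjusted p = 0.00743), and in the channel of the control RNA alone they were at 1.99 and 2.43, above the later values of 0.15 to 0.91. The raw spot signal of *NEUROG1* had a median of 5525 at 30 min (1065 to 42090 over 25 arrays), 3122 at 1 hr, 2139 at 2 hrs and 1788 at 3 hrs. Recovery time and day of image analysis cannot be told apart here, since no day held arrays of 30 min and of another time point. Among the 4 days of 30 min the mean relative signal of *NEUROG1* ran from 0.60 to 4.07. With the day as a random block over all arrays the adjusted p was 0.0795, and without 30 min replicate 2 it was 0.144. *HES2* followed, at 3.23 and 4.49, 3.20 and 1.59, 1.99 and 2.33, and 3.55 and 4.06, with an adjusted p of 0.159. *MYC* had relative signals of 0.92, 0.65, 0.44 and 0.03 in the means of the 4 time points (adjusted p = 0.191), and *NHLH2* of 0.07, 0.71, 1.06 and 0.56 (0.176). The median range over the 4 time points was 0.570 for the members and 0.553 for all genes.

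Many members gave a difference between the dyes that did not turn with the dye switch, and its median size exceeded that of the laser difference. Fitted on the means of both orientations with the biological replicate as a term, it passed an adjusted p of 0.05 in limma for 17 of 54 members (31.5%, against 32.9% of all genes), of which 6 were higher in Cy5. *ID1* was the most shifted toward Cy5, by 0.40 (adjusted p = 7.32e-05), and *TCF3* (−0.36), *TAL2* (−0.35), *NEUROG2* (−0.34) and *HAND2* (−0.30) were the most shifted toward Cy3. The median size over the members was 0.0973 for the dye difference and 0.0693 for the laser difference. *NEUROG1* was at −0.06, *NHLH2* at −0.06 and *ARNT* at −0.11, none past the threshold, whereas *HES7* (−0.29), *HES2* (−0.25), *MAX* (−0.27) and *HAND2* were. With no array turned, 10 members were called at 30 min (18.5%, against 13.2% of all genes), 10 at 1 hr (18.5%, against 17.4%), 13 at 2 hrs (24.1%, against 24.5%) and 9 at 3 hrs (16.7%, against 17.6%). The median difference between the duplicate spots of a member on an array was 0.200 on the log2 scale, with a range from 0.101 to 0.314 over the members.

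**Figure D5:**
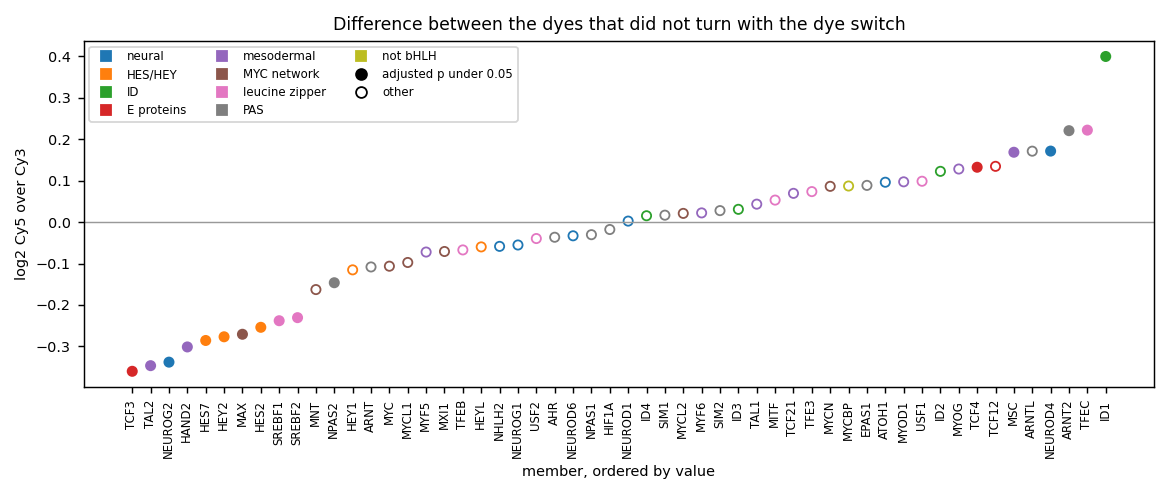
Difference between the dyes, as log2 of Cy5 over Cy3, of the 54 members in the order of their values, coloured by family branch and filled where the adjusted p was under 0.05. The values run from −0.36 for *TCF3* to 0.40 for *ID1*.

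Related genes outside the name pattern were read from lists fixed by name. Of the 12 further bHLH genes on the array, among them the clock gene *CLOCK*, the MAX partners *MAD* and *MAD4*, and the stress-responsive repressors *BHLHB2* and *BHLHB3*, none was called at any time point. *BHLHB2* and *BHLHB3* were detectable at none. Of the 4 genes of a Notch pathway list on the array (*RBPSUHL*, *SNW1*, *TLE4* and *FHL1*), 1 was called, namely *SNW1*, a coregulator of the Notch complex, at 2 hrs with a ratio of 0.26, where 4.19% of all genes were called. Its orientations were at 0.69 and −0.17 there, and with no array turned it was at −0.43. All 4 were above 0 at 1 hr and at 2 hrs (45.1% of all genes at each), and 0 of 4 were at 3 hrs (49.7%). With no array turned these counts were 1, 1 and 0. Of 3 genes of the hypoxia pathway (*CITED2*, *EP300* and *CREBBP*), none was called, and the largest ratio was that of *CITED2* at 2 hrs, 0.18.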

How the data were processed

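RNA of laser-wounded and control cochlear SE was compared on 77 arrays with 2 dyes, from 2 biological replicates at each of 4 time points. The authors deposited intensity values measured on the scanned images with ImaGene, the mean of each spot and of its local background in both channels, without background subtraction or normalization. The authors also deposited log2 ratios that equal the raw laser over control ratios to within 5.77e-15, so no LOWESS step had been applied. They were used only as an alternative.

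Channels were corrected by normexp (offset 50) and arrays normalized by loess in limma 3.58.1 (R 4.3.3), with 27 control names at weight 0. Titles gave the dye that carried laser RNA, and image names gave the same dye on 77 of 77 arrays. Duplicate spots, arrays of each orientation and both orientations were averaged to 8 replicates. The mean signal of 1504 of 1507 genes reached 1000 at some time point, and these were fitted with lmFit and eBayes, with Benjamini-Hochberg adjustment over all of them within a time point. The number of replicates limits the precision (the residual standard deviation had a median of 0.116 on the log2 scale). Since each replicate pools specimens, p-values rest on the spread between such pools, moderated over all genes. The code was tested on simulated data.

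Replicate values were given for each member called at the unadjusted threshold and for a fixed list of genes (*ATOH1*, *NEUROG1*, *NEUROD1*, HES, HEY and ID genes, E proteins, *MYC*, *MAX*, *HIF1A*, *ARNT*, *EPAS1* and *AHR*). Other genes named were chosen as extremes of their group after their values were seen. Members and lists were chosen with earlier results of these data known. Replicate numbers were not taken to pair samples across time points. Alternatives changed the background correction, the normalization, the filter, the orientation, the test, the blocks and the replicates. The day of image analysis as a random block for signals, values by day, and counts of signs without turning were added after seeing the data. Probe, promoter and protein sequences were not used here.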

Additional observations from a re-analysis of the deposited data

How the results depend on the processing

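The main settings called 3, 0, 3 and 2 members at the 4 time points. Arrays with laser RNA in Cy3 alone gave 8, 11, 15 and 7 (15.2%, 22.4%, 31.2% and 13.4% of all genes), those with it in Cy5 alone 9, 5, 11 and 10 (15.4%, 9.51%, 19.5% and 22% of all genes), and all arrays with none turned 10, 10, 13 and 9. An adjusted p gave 0 at each time point. At 30 min, median centring and the methods' t-test over arrays each gave 1 (2.53% of all genes for both). The authors' ratios gave 8 (14.2%) and no fold threshold 5 (8.91%). At 1 hr, scaling between arrays gave 1 (0.598% of all genes). At 2 hrs, plain subtraction gave 5 (6.45% of all genes), no background correction 0 (0.798%) and median centring 1 (7.58%). The authors' ratios gave 8 there (12.4%) and no fold threshold 6 (10.9%). At 3 hrs, plain subtraction gave 0 (2.46% of all genes). Median centring (1.53%), the methods' t-test (0.798%) and the image-analysis day as a term (1.46%) gave 1 each. Leaving out 1 replicate at a time moved the count of members only at the time point that lost it, where the share of all genes moved as well. That time point then rested on 1 replicate. The 7 members past the unadjusted F-test became 4 with median centring (9.64% of all genes), with Cy3 alone (15.1%) and with Cy5 alone (6.91%). With the authors' ratios they became 9 (12.7% of all genes). There 1 member had an adjusted p under 0.05 in the F-test, and the share of all genes was not counted. Leaving out 1 replicate moved the unadjusted F-test count as well, in some cases below 4, with 1 replicate left at a time point. The 1 member with a changed signal became 0 with the day as a random block, and 0 to 2 without 1 replicate, with *HES2* or *NEUROG2* added without 1 hr replicate 1 or 2.

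The numbers of the replicates gave correlations of deviations between −0.247 and 0.168 over 6 pairs of time points, so no pairing was assumed. With the replicate block, 3, 0, 3 and 2 members were called (3.46%, 0.332%, 4.19% and 1.66% of all genes). The F-test then passed 4 (7.05%) and the signal test 1 (0.465%).

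Of the called ratios, *HES7* was at 0.44 at 30 min and 0.0109 at 3 hrs and *HES2* at 0.0873 at 3 hrs in the Cy3 orientation alone, and *NHLH2* at 2 hrs was −0.11 with no array turned. In the authors' ratios *NEUROG1* at 30 min was at 0.67 (adjusted p = 0.00205 in limma) and *HES7* at 3 hrs at −0.57 (0.0454). *HES2* at 3 hrs was at −0.49 there (0.157). *HES7* and *MAX* at 30 min were at −0.19 and −0.13, and *ARNT*, *HAND2* and *NHLH2* at 2 hrs at −0.40, −0.39 and 0.09, with larger adjusted p-values. Detectable members at 30 min were 29 at a level of 800 (55.3% of all genes) and 10 at 1200 (20.4%). At 50% of arrays they were 42 (69.3%), at 100% 7 (7.37%) and with arrays scaled to the same median 43 (72.6%). Above the control spots were 6 (5.91%), and 7 at each later time point (11.3%, 6.37% and 8.63%). At 3 hrs 22 were detectable at 1200 (34.7% of all genes) and 10 at 100% (18%). Members detectable throughout were 15 in the main setting (29.8% of all genes), 27 at 800 (53%) and 41 at 50% (67.9%). At 100% they were 6 (5.77%), with scaled arrays 39 (66.1%) and above the control spots 6 (3.65%). The cause of these shifts was not tested.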
